A study of Mus musculus with 13 samples.

Results

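The genes described here are Rab38, Rab32, Rab27a, Mlph, Myo5a and Gpnmb, 6 genes of melanosome building and movement that were chosen by name, out of 19937 genes measured on the arrays. Each was read by 1 probe set that names 1 gene, so all 6 could be followed on all 13 arrays without a filter. The arrays fall into 6 groups of mouse samples taken in vivo. Cdkn2a/Braf/Lkb1 melanoma (2 arrays) and Cdkn2a/Braf melanoma (2 arrays) were uncultured tumour tissue. Lkb1/Braf melanocytic proliferation (3 arrays) was uncultured tissue too, and its samples were pools. Cdkn2a/Braf melanocytes at day 50, after growth arrest (2 arrays), Cdkn2a/Braf melanocytes at day 19, before it (2 arrays), and Cdkn2a only melanocytes at day 19, with wild-type Braf (2 arrays), were purified by FACS. All sorted groups share the Cdkn2a alteration, both melanoma groups carry it too, and Cdkn2a only melanocytes are the one group without the altered Braf. How the alleles were switched on, the ages of the animals and how many went into a pool are not given in the sources used here. Tissue and sorted cells differ in how they were collected, and for a comparison between them the collection and the disease cannot be told apart.

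A melanosome is a lysosome-related organelle in which pigment cells make and store melanin. Rab38 and Rab32 are closely related small GTPases that direct vesicles carrying pigment enzymes from endosomes to the maturing melanosome, with BLOC-3 as their exchange factor. Rab27a then sits on the mature melanosome, melanophilin (Mlph) binds it, and melanophilin recruits the motor myosin Va (Myo5a), which holds and moves the organelle on actin near the cell edge. In mice, loss of Rab38, Rab27a, Mlph and Myo5a gives the coat colours chocolate, ashen, leaden and dilute. Gpnmb is a glycoprotein of melanosomes and lysosomes related to Pmel, the fibril protein of early melanosomes, and macrophages also make it.

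Levels below are log2(intensity + 1) of a gene's probe set on each array, and differences are log2 differences of group means with the standard error of the limma fit over all genes. A gene was called where its adjusted p, by limma with Benjamini-Hochberg adjustment over 19937 genes, was under 0.05. Genes that define the labelled cells were checked first. Tyrp1 and Dct, melanin enzymes, averaged 12.82 and 12.87 in day 50 Cdkn2a/Braf melanocytes and 13.18 and 13.29 in day 19 Cdkn2a/Braf melanocytes, among the brightest genes there. In Lkb1/Braf proliferation they averaged 8.39 and 10.12. In tumours they were dim, at 4.70 and 4.99 in Cdkn2a/Braf/Lkb1 melanoma and 5.43 and 5.47 in Cdkn2a/Braf melanoma, and lay no higher than percentile 37.7 of all genes on any tumour array. Sox10, a melanocyte and melanoma transcription factor, lay at 5.97 and 6.44 in Cdkn2a/Braf/Lkb1 melanoma and 7.05 and 8.13 in Cdkn2a/Braf melanoma, against group means of 8.74 to 8.82 in sorted cells. Macrophage genes went the other way, with Csf1r at 9.12 in Cdkn2a/Braf/Lkb1 melanoma and 8.27 in Cdkn2a/Braf melanoma and at 5.78 to 5.92 in the sorted groups. Both pigment enzymes were thus dim in the tissue labelled melanoma, and in all these bulk samples fewer cells of a type and less RNA per cell cannot be told apart.

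**Figure D1:**
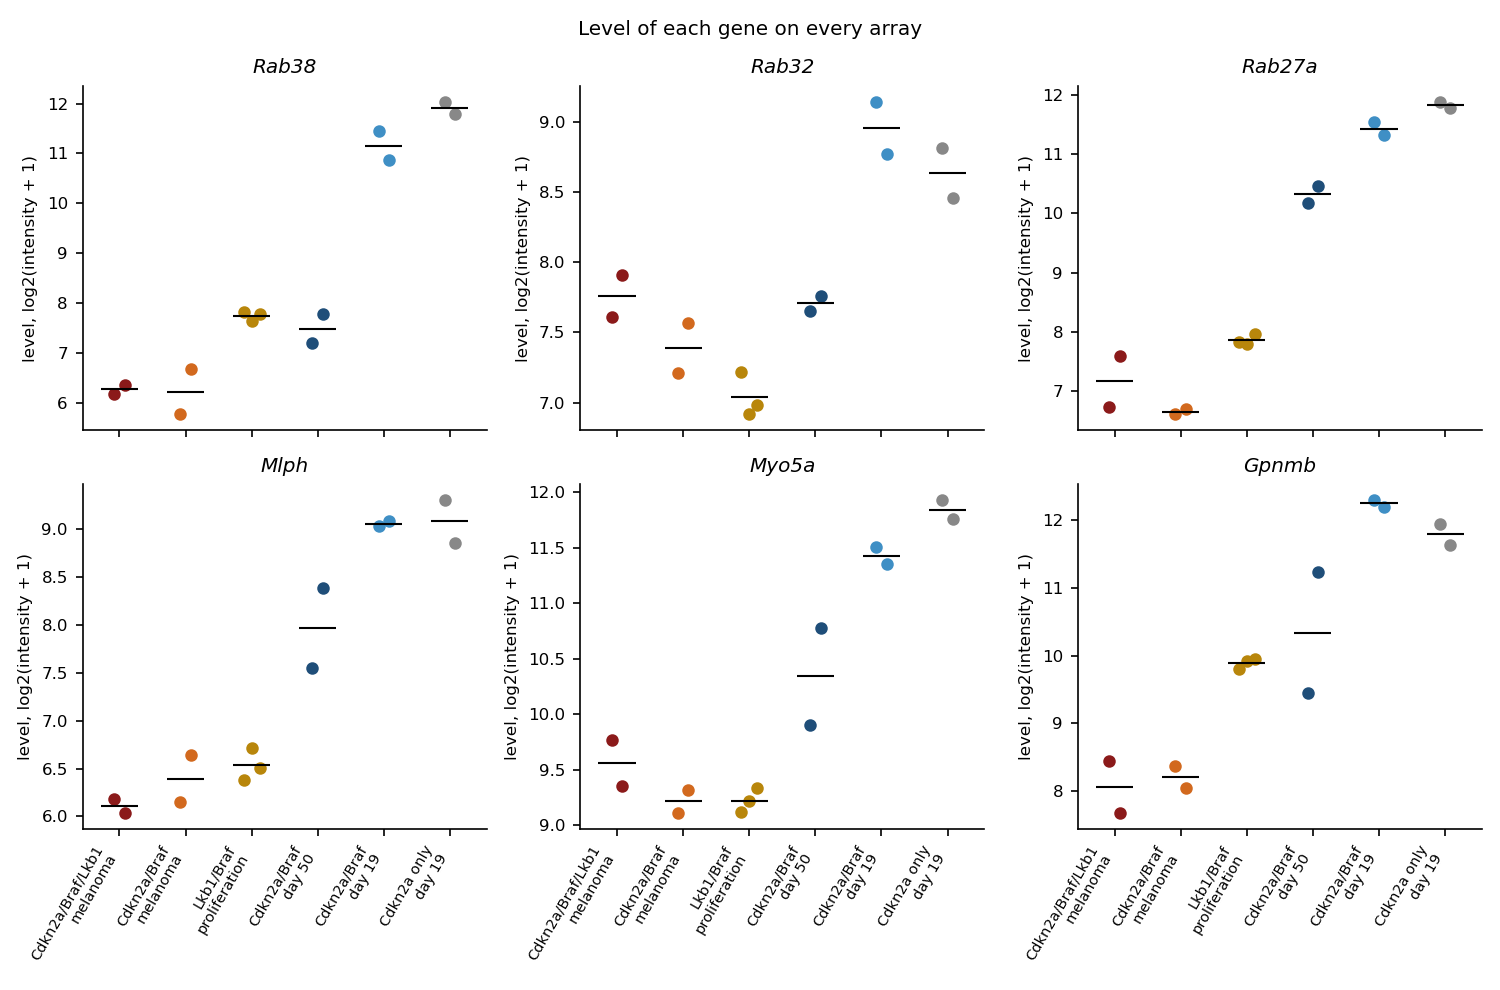
Level of each of the 6 genes, log2(intensity + 1), on every array (points) with the group mean (line), in 6 groups. All 6 genes were highest in the 2 day 19 groups, and Rab38 at day 50 lay near its level in Lkb1/Braf proliferation while Rab27a did not.

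Rab38 had the widest span of the 6 genes, 5.70 between its highest and lowest group mean, a 51.9-fold range, against a median span of 0.81 over all genes. Its levels were 6.18 and 6.36 in Cdkn2a/Braf/Lkb1 melanoma, 5.76 and 6.67 in Cdkn2a/Braf melanoma, and 7.82, 7.64 and 7.78 in Lkb1/Braf proliferation. In sorted cells they were 7.19 and 7.78 in day 50 Cdkn2a/Braf melanocytes, 11.45 and 10.86 in day 19 Cdkn2a/Braf melanocytes, and 12.04 and 11.79 in Cdkn2a only melanocytes. Both day 19 groups stood far above every other array, from percentile 98.0 of all genes upward, while day 50 arrays overlapped the proliferations. On the tumour arrays Rab38 lay between percentile 32.2 and 54.2, near or below the middle of the array. From high to low the order was Cdkn2a only, day 19, proliferation, day 50, Cdkn2a/Braf/Lkb1 melanoma and Cdkn2a/Braf melanoma. Neighbours separated by the fit were day 19 and the proliferation, and day 50 and Cdkn2a/Braf/Lkb1 melanoma. Between the proliferation and day 50 the interval holds 0 (difference 0.26, SE 0.28, limma adjusted p = 0.535).

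Rab32, its relative, varied least. Its span was 1.92, or 3.78-fold. It had 7.61 and 7.91 in Cdkn2a/Braf/Lkb1 melanoma, 7.21 and 7.56 in Cdkn2a/Braf melanoma, and 7.22, 6.92 and 6.98 in Lkb1/Braf proliferation. Sorted cells had 7.65 and 7.76 in day 50 Cdkn2a/Braf melanocytes, 9.14 and 8.77 in day 19 Cdkn2a/Braf melanocytes, and 8.81 and 8.46 in Cdkn2a only melanocytes. The day 19 groups were again on top, but day 50 lay within the range of the tumours, and the lowest mean was that of the proliferation. The order was day 19, Cdkn2a only, Cdkn2a/Braf/Lkb1 melanoma, day 50, Cdkn2a/Braf melanoma and proliferation. One pair of neighbours in this order was separated, Cdkn2a only melanocytes and Cdkn2a/Braf/Lkb1 melanoma (the tumour minus the sorted cells -0.88, SE 0.20, limma adjusted p = 0.0112).

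Rab27a spanned 5.17, or 35.9-fold, and kept a high level at day 50. It had 6.74 and 7.59 in Cdkn2a/Braf/Lkb1 melanoma, 6.61 and 6.71 in Cdkn2a/Braf melanoma, and 7.83, 7.80 and 7.97 in Lkb1/Braf proliferation. It had 10.18 and 10.46 in day 50 Cdkn2a/Braf melanocytes, 11.53 and 11.31 in day 19 Cdkn2a/Braf melanocytes, and 11.88 and 11.78 in Cdkn2a only melanocytes. Groups stepped down without overlap from the day 19 groups to day 50, to the proliferation and to the tumours, where Rab27a lay between percentile 52.6 and 69.7 of all genes. Each of these steps was called, and the neighbours not separated were the pair of day 19 groups and the pair of melanomas.

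Mlph, the linker between Rab27a and the motor, had a similar order over a span of 2.98, or 7.88-fold. Its levels were 6.18 and 6.04 in Cdkn2a/Braf/Lkb1 melanoma, 6.15 and 6.64 in Cdkn2a/Braf melanoma, and 6.38, 6.72 and 6.50 in Lkb1/Braf proliferation. They were 7.55 and 8.38 in day 50 Cdkn2a/Braf melanocytes, 9.04 and 9.08 in day 19 Cdkn2a/Braf melanocytes, and 9.31 and 8.86 in Cdkn2a only melanocytes. On every tissue array Mlph lay between percentile 41.2 and 54.0 of all genes, near the middle of the array, and the order ran Cdkn2a only, day 19, day 50, proliferation, Cdkn2a/Braf melanoma and Cdkn2a/Braf/Lkb1 melanoma. Day 50 was separated from both its neighbours, and the fit did not separate the tissue groups.

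Myo5a, the motor, was bright everywhere. It had 9.77 and 9.35 in Cdkn2a/Braf/Lkb1 melanoma, 9.11 and 9.32 in Cdkn2a/Braf melanoma, and 9.12, 9.22 and 9.33 in Lkb1/Braf proliferation. It had 9.90 and 10.78 in day 50 Cdkn2a/Braf melanocytes, 11.51 and 11.35 in day 19 Cdkn2a/Braf melanocytes, and 11.93 and 11.76 in Cdkn2a only melanocytes. From high to low its order was Cdkn2a only, day 19, day 50, Cdkn2a/Braf/Lkb1 melanoma, proliferation and Cdkn2a/Braf melanoma, with day 50 separated from both its neighbours and the tissue groups not from each other. Its lowest arrays were still at percentile 89.2 of all genes, and the span was 2.63, or 6.18-fold. Myosin Va is used by many cell types, and which cells gave the tissue signal was not tested.

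Gpnmb spanned 4.19, or 18.3-fold. Its levels were 8.45 and 7.68 in Cdkn2a/Braf/Lkb1 melanoma, 8.36 and 8.05 in Cdkn2a/Braf melanoma, and 9.80, 9.91 and 9.94 in Lkb1/Braf proliferation. They were 9.45 and 11.23 in day 50 Cdkn2a/Braf melanocytes, 12.30 and 12.20 in day 19 Cdkn2a/Braf melanocytes, and 11.95 and 11.64 in Cdkn2a only melanocytes. The day 50 arrays lay 1 on each side of the proliferations and differed from each other more than in any other group (SD 1.26). The order was day 19, Cdkn2a only, day 50, proliferation, Cdkn2a/Braf melanoma and Cdkn2a/Braf/Lkb1 melanoma, and the fit separated Cdkn2a only from day 50 and the proliferation from Cdkn2a/Braf melanoma. Summed over 14 macrophage genes, the intensity was 11299 to 13783 in Cdkn2a/Braf/Lkb1 melanoma, 6664 to 7183 in Cdkn2a/Braf melanoma and 8276 to 9144 in the proliferation, and the part of macrophages in the Gpnmb levels was not tested.

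Cdkn2a/Braf melanocytes at day 50, after growth arrest, were compared with those at day 19, before it, and all 6 genes were lower at day 50. No sorted group was arrested at day 19 or still growing at day 50, so arrest and time cannot be told apart. Rab38 fell most, by 3.67 (SE 0.30, limma adjusted p = 6.65e-05), a 12.7-fold difference. Gpnmb fell by 1.91 (SE 0.46, adjusted p = 0.0155) and Rab32 fell by 1.25 (SE 0.20, adjusted p = 0.00209). Of the 3 genes of the actin transport complex, Rab27a fell by 1.10 (SE 0.23, adjusted p = 0.00909), Mlph fell by 1.09 (SE 0.27, adjusted p = 0.0182) and Myo5a fell by 1.09 (SE 0.25, adjusted p = 0.0139). No array of one day overlapped the other for any of the 6. Over all genes 25.6% were called in this comparison, 14.5% were called lower and 70.7% had arrays that did not overlap, and the median was -1.18 for the 6 genes and 0.17 for all genes. Among the 9968 genes above the median level, fitted alone, 2714 were lower and 695 higher, with a median of -0.26. The arrays of this pair of groups differ in the width of their distributions, with an interquartile range of 1.93 at day 50 and 2.55 to 2.58 at day 19. With all arrays set to a common interquartile range, 2 of the 6 were called (Rab38 and Rab32), and Rab27a and Myo5a stood at 0.06 and 0.07. After quantile normalization 4 were called, with Mlph at -0.60 and Myo5a at -0.76 no longer past the threshold. Without day 19 replicate 1, Rab38 and Rab32 alone were called, and Rab27a, Mlph, Myo5a and Gpnmb stood at -0.99, -1.12, -1.01 and -1.86. Without day 19 replicate 2, 3 were called, and Mlph, Myo5a and Gpnmb stood at -1.07, -1.17 and -1.96. Without day 50 replicate 1, Mlph was lost at -0.68, and Rab27a, Myo5a and Gpnmb stood at -0.96, -0.65 and -1.02. Without day 50 replicate 2, Rab27a, Mlph, Myo5a and Gpnmb stood at -1.24, -1.51, -1.53 and -2.80. With the 6 sorted arrays fitted alone, 3 were called (Rab38, Rab32 and Rab27a).

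**Figure D2:**
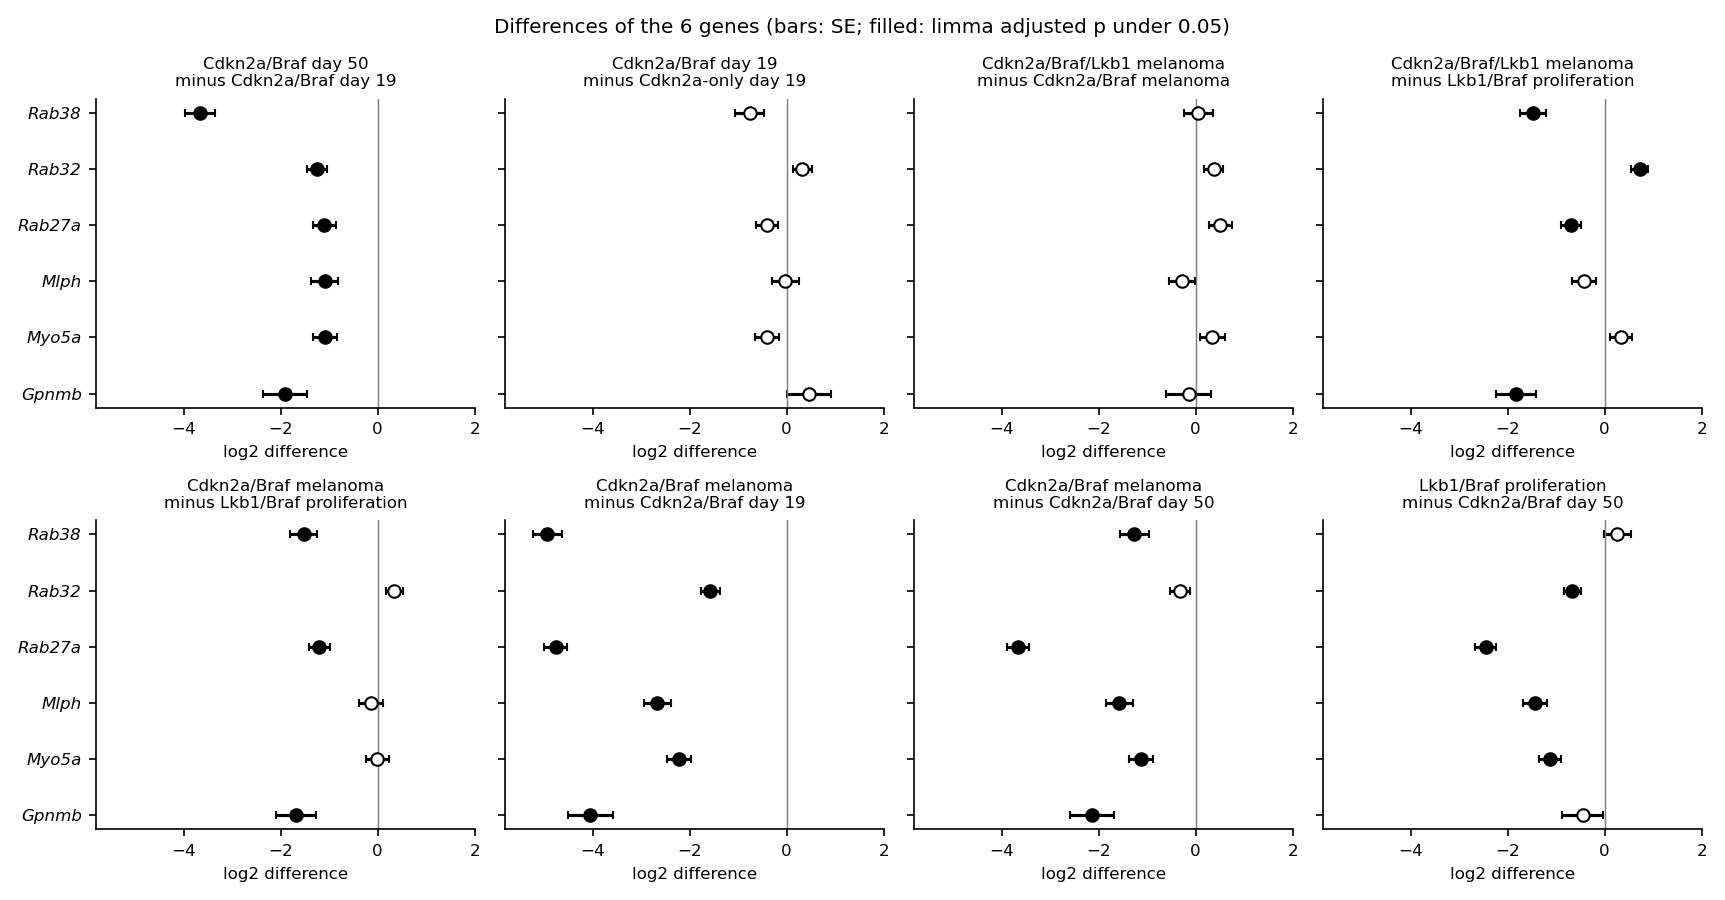
Log2 differences of the 6 genes in 8 comparisons, with bars for the SE of the limma fit over all 13 arrays and filled points for adjusted p under 0.05. Rab38 stands apart at day 50 against day 19 (-3.67), and Cdkn2a/Braf melanoma differs from day 19 cells in all 6 genes.

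Because Rab38 had the largest difference of the 6 genes between these groups, it was set against the mean of the other 5 genes on each array, as a description. This offset was -1.75 and -1.95 in day 50 Cdkn2a/Braf melanocytes, against 0.74 and 0.31 in day 19 Cdkn2a/Braf melanocytes. In Cdkn2a only melanocytes it was 1.27 and 1.29. A negative offset was not particular to day 50. It was -1.565 and -1.35 in Cdkn2a/Braf/Lkb1 melanoma, -1.72 and -0.98 in Cdkn2a/Braf melanoma, and -0.25, -0.47 and -0.37 in the proliferation. The change of the offset between day 50 and day 19 was -2.38. The change was -2.36 after quantile normalization and -2.75 with a common interquartile range. An exact permutation test of the day 50 and day 19 offsets gave p = 0.333. With 2 arrays a group no smaller p was possible, so that test could not decide whether they differ.

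Sorted cells at day 50 still held bright melanocyte genes. The mean of 7 core melanocyte genes (Mitf, Sox10, Pax3, Tyrp1, Dct, Pmel and Mlana) was 11.36 in day 50 Cdkn2a/Braf melanocytes and 11.82 in day 19 Cdkn2a/Braf melanocytes, a difference of -0.47. Taken against that mean on each array, the change was -3.20 for Rab38, -1.44 for Gpnmb and -0.79 for Rab32, and between -0.62 and -0.63 for Rab27a, Mlph and Myo5a, with no overlap of arrays for any of them. These relative changes are a description with no test. Defining genes of other cell types were read in the same comparison. Pecam1, an endothelial gene, averaged 8.63 at day 50 and 6.27 at day 19 and was called higher (limma adjusted p = 0.000141). Krt5, a basal keratinocyte gene, averaged 11.25 at day 50 and 9.00 at day 19 and was not called (adjusted p = 0.117). Endothelial Cdh5 (8.73 and 6.85) and fibroblast Col1a1 (8.60 and 7.44) were called higher at day 50 too. Keratinocyte Krt14 (10.40 and 7.93) and fibroblast Pdgfra (7.35 and 6.39) were not called. Csf1r and Adgre1 of macrophages, Cpa3 of mast cells, and Cd3e and Nkg7 of T and NK cells were not called, and Kit was called lower. The part of such cells in the members' drop was not tested.

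Braf alone was addressed by day 19 Cdkn2a/Braf melanocytes against Cdkn2a only melanocytes. None of the 6 genes was called, at a background of 0.291% of all genes, and 1 of the 6 had an unadjusted p under 0.05, as did 1446 of all genes. Rab38 had the largest difference, -0.77 (SE 0.30, limma adjusted p = 0.596), with a 95% interval from -1.44 to -0.09. Intervals for the others ran from -0.93 to 0.11 for Rab27a, from -0.97 to 0.16 for Myo5a, from -0.63 to 0.58 for Mlph, from -0.12 to 0.77 for Rab32 and from -0.56 to 1.47 for Gpnmb. The arrays of both groups did not overlap for 4 of the 6 genes, as for 40.6% of all genes. The intervals of Mlph, Rab27a, Myo5a and Rab32 lie within 1 of 0, and those of Rab38 and Gpnmb do not.

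The added Lkb1 alteration in a Cdkn2a/Braf tumour was addressed by Cdkn2a/Braf/Lkb1 against Cdkn2a/Braf melanoma. None of the 6 genes was called, at a background of 2.56%, and none had an unadjusted p under 0.05, against 3820 of all genes. Differences ran from -0.29 (SE 0.27) for Mlph to 0.51 (SE 0.23) for Rab27a. Without Cdkn2a/Braf/Lkb1 melanoma replicate 1, Rab27a was called at 0.93 (limma adjusted p = 0.0262). Among 26 partners of Rab27a and myosin Va 1 gene was called, near the 2.56% of all genes. It was Sytl2, an effector that binds Rab27a on melanosomes. Its means were 6.39 in Cdkn2a/Braf/Lkb1 melanoma and 4.93 in Cdkn2a/Braf melanoma (difference 1.46, SE 0.26, adjusted p = 0.0192). Both means lay below the median level of all genes on the tumour arrays, 6.44 to 6.495. In the same comparison 2 of 14 macrophage genes and 1 of 10 fibroblast genes were higher, 1 of 7 mast cell genes and 2 of 7 neuron genes were lower, and no gene of the keratinocyte, hair shaft, endothelial, Schwann cell or T and NK cell lists was called. The part of these cells in the difference of Sytl2 was not tested.

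Melanomas were set against the Lkb1/Braf proliferation, all of them tissue. Rab38, Rab27a and Gpnmb were lower in both melanomas, while Mlph and Myo5a were not called in either. In Cdkn2a/Braf/Lkb1 melanoma Rab38 fell by 1.48 (SE 0.28, limma adjusted p = 0.00278), Gpnmb fell by 1.83 (SE 0.42, adjusted p = 0.00719) and Rab27a fell by 0.70 (SE 0.21, adjusted p = 0.0263), and Rab32 rose by 0.72 (SE 0.18, adjusted p = 0.0113). In Cdkn2a/Braf melanoma Rab38 fell by 1.53 (SE 0.28, adjusted p = 0.00392), Gpnmb fell by 1.68 (SE 0.42, adjusted p = 0.0178) and Rab27a fell by 1.20 (SE 0.21, adjusted p = 0.00353), and Rab32 differed by 0.35 (SE 0.18, adjusted p = 0.204). That made 1 higher and 3 lower of 6 in the first comparison, where 40.6% of all genes were called, 20% higher and 20.6% lower, and 3 lower of 6 in the second, where 21.5% were called, 12.6% higher and 8.88% lower. Both use the same proliferation arrays, so they are not independent of each other. Without Cdkn2a/Braf/Lkb1 melanoma replicate 2 the first count was 2, with Rab32 at 0.57 and Gpnmb at -1.44 not called. In the first comparison Rab32 was not called after quantile normalization (0.47, adjusted p = 0.0968), and Rab27a was not called with median centring (-0.58, adjusted p = 0.0578). Rab27a in the first comparison was also not called without Cdkn2a/Braf/Lkb1 melanoma replicate 1 (-0.27) or without proliferation replicate 1, 2 or 3 (-0.71, -0.73 and -0.65). Gpnmb in the second was not called without Cdkn2a/Braf melanoma replicate 1 (-1.84) or 2 (-1.52) or without proliferation replicate 2 (-1.67). Markers of other cells moved in the same comparisons. In Cdkn2a/Braf/Lkb1 melanoma 13 of 13 keratinocyte, 10 of 10 hair shaft, 2 of 7 mast cell and 2 of 7 T and NK cell genes were lower, 4 of 8 endothelial genes were higher, and 5 macrophage, 6 fibroblast and 2 neuron genes were higher while 1, 1 and 3 were lower. In Cdkn2a/Braf melanoma 11 of 13 keratinocyte, 10 of 10 hair shaft, 5 of 7 T and NK cell and 1 of 5 Schwann cell genes were lower, 3 of 10 fibroblast, 2 of 8 endothelial and 1 of 7 neuron genes were higher, and 1 macrophage gene was higher while 2 were lower. Their part in the members' differences was not tested. The core melanocyte mean differed by -2.14 and -1.65, but its 7 genes did not move together. In the first comparison 1 was higher and 6 lower, and in the second 1 was higher and 5 lower. Pax3 was higher, by 1.37 and 2.05, Dct was lower, by 5.14 and 4.65, and Sox10 was not called in the second (0.32). Values taken against the core mean depend on this mix and would differ against Pax3 or Sox10 alone. Against the core mean, Rab38 stood 0.67 above the proliferation in Cdkn2a/Braf/Lkb1 melanoma and 0.12 above it in Cdkn2a/Braf melanoma, where the arrays overlapped. Rab27a stood 1.445 and 0.44 above it without overlap, and Gpnmb stood at 0.32 and -0.03 with overlap in both. Rab32, Mlph and Myo5a stood at 2.86, 1.71 and 2.48 in the first comparison and 1.99, 1.51 and 1.64 in the second, without overlap. These relative values are a description with no test.

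Cdkn2a/Braf melanoma was also set against sorted melanocytes of its own genotype. Against day 19 cells all 6 genes were lower, where 12.6% of all genes were called and 5.46% were called lower, and the median was -3.36 for the 6 and -0.04 for all genes. Rab38 fell by 4.93 (SE 0.30, limma adjusted p = 6.02e-06) and Rab27a fell by 4.76 (SE 0.23, adjusted p = 1.69e-06). Gpnmb fell by 4.05 (SE 0.46, adjusted p = 0.000236) and Mlph fell by 2.67 (SE 0.27, adjusted p = 0.000127). Myo5a fell by 2.22 (SE 0.25, adjusted p = 0.000258) and Rab32 fell by 1.57 (SE 0.20, adjusted p = 0.000498). All 6 stayed called in each of the alternative settings. The core melanocyte mean fell by 5.07 in the same arrays. Its genes fell unequally, Dct by 7.81, Pax3 by 1.91 and Sox10 by 1.23 (not called). Relative to the core mean Rab38 and Rab27a stood at 0.14 and 0.31, Rab32 and Myo5a at 3.50 and 2.86, and Mlph and Gpnmb at 2.41 and 1.03. The arrays overlapped for Rab38 alone. These relative values are a description with no test, depend on the mix of core genes and would differ against Sox10 or Pax3 alone. Against day 50 cells 5 were lower, where 32.4% of all genes were called and 16.9% were called lower, and the differences were -3.66 for Rab27a (SE 0.23, adjusted p = 1.12e-05), -2.14 for Gpnmb, -1.57 for Mlph, -1.27 for Rab38, -1.13 for Myo5a and -0.32 for Rab32, which was not called. Rab32 was called lower there after quantile normalization (-0.71, adjusted p = 0.031) and with a common interquartile range (-0.65, adjusted p = 0.0331). With the arrays of those 2 groups fitted alone, 1 of the 6 was called, that being Rab27a. Without Cdkn2a/Braf melanoma replicate 1, 3 were called, with Rab38 at -0.81 and Myo5a at -1.03 not called, and without replicate 2 Gpnmb was not called (-1.98). In the proliferation against day 50 cells 4 were lower. Rab27a fell by 2.46 (SE 0.21, adjusted p = 8.39e-05), Mlph fell by 1.43, Myo5a fell by 1.12 and Rab32 fell by 0.67, where 18.3% of all genes were called and 9.2% were called lower, while Rab38 and Gpnmb were not called, at 0.26 and -0.46. Rab32 was not called without day 50 replicate 1 (-0.72) or 2 (-0.61) or without proliferation replicate 2 (-0.60) or 3 (-0.64), and Gpnmb was lower without day 50 replicate 1 (-1.35, adjusted p = 0.00543).

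**Figure D3:**
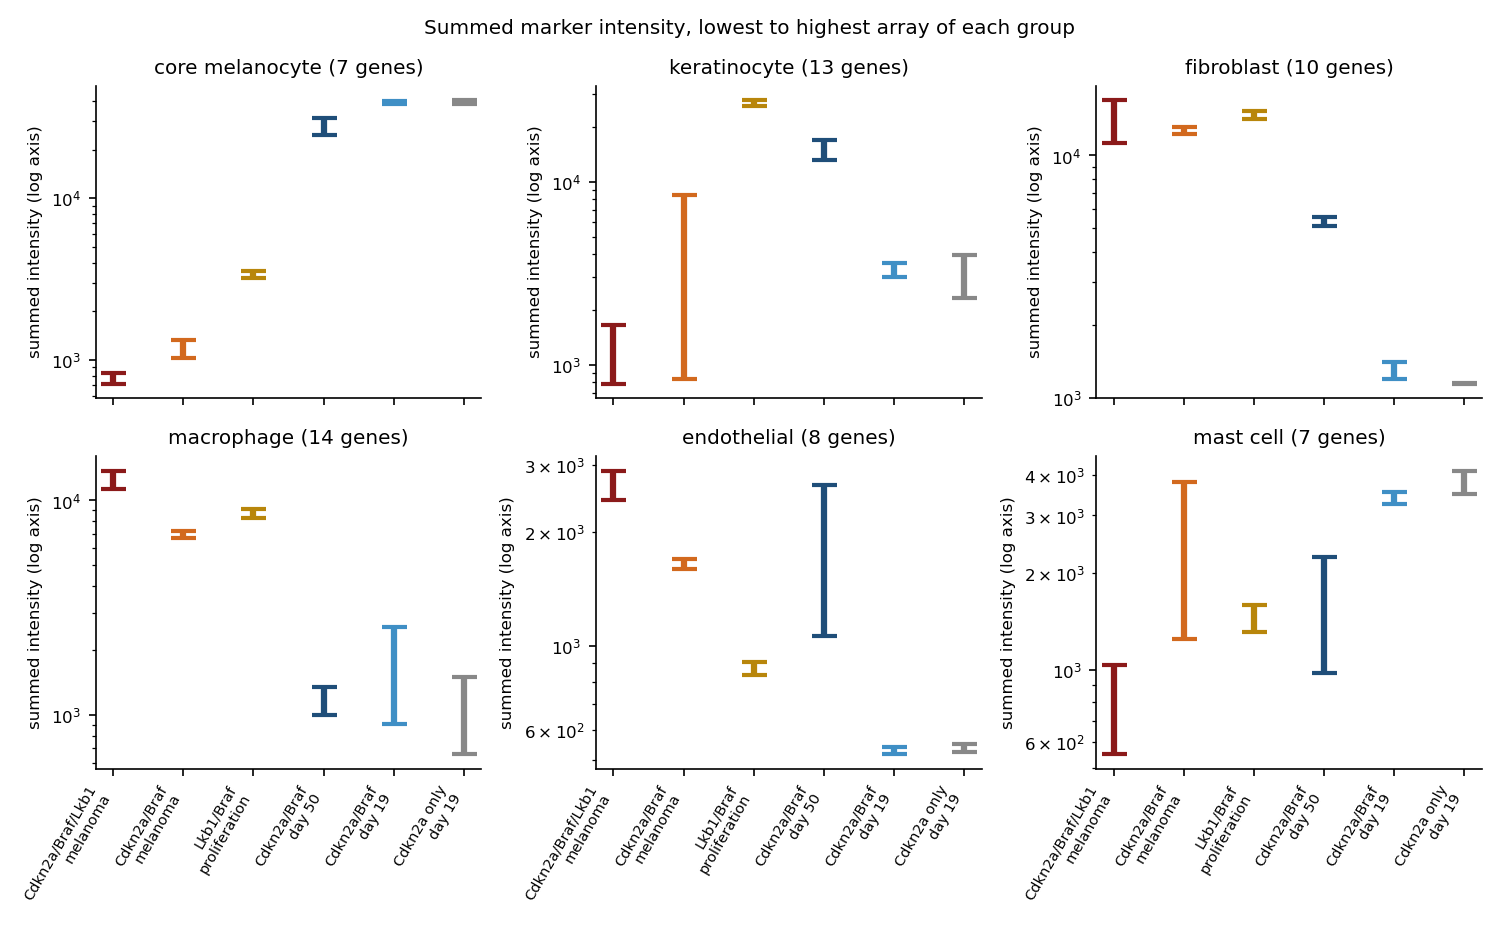
Summed intensity of marker genes on a log axis, from the lowest to the highest array of each group, for 6 cell types. Core melanocyte genes sum to 24474 or more on sorted arrays and to at most 3570 on tissue arrays, and macrophage genes run the other way. The mast cell list includes Kit, a receptor of melanocytes too, which averaged 11.63 in day 19 Cdkn2a/Braf melanocytes.

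Intensities summed over whole lists of markers were also compared between groups. A sum leans on the brightest genes of its list and does not measure the number of cells. The summed core melanocyte intensity was 710 to 833 in Cdkn2a/Braf/Lkb1 melanoma, 1020 to 1323 in Cdkn2a/Braf melanoma and 3215 to 3570 in Lkb1/Braf proliferation. It was 24474 to 31525 in day 50 Cdkn2a/Braf melanocytes, 38061 to 39958 in day 19 Cdkn2a/Braf melanocytes and 38554 to 40434 in Cdkn2a only melanocytes. Keratinocyte genes summed to 13204 to 16943 at day 50 and 3000 to 3614 at day 19, and fibroblast genes to 5118 to 5578 at day 50 and 1198 to 1397 at day 19. Of these lists, 2 of 13 keratinocyte, 6 of 8 endothelial and 6 of 10 fibroblast genes were higher at day 50, and 1 fibroblast gene was lower. Schwann cell genes summed to 5442 to 12192 at day 50 and 2079 to 2484 at day 19, with 4 of 5 higher, and hair shaft genes to 986 to 1017 at day 50 and 1668 to 1921 at day 19, with 5 of 10 lower. Of 7 mast cell and 7 neuron genes 1 each was lower, of 14 macrophage genes 1 was higher and 1 lower, and no T and NK cell gene was called. The mast cell gene called lower was Kit, a receptor of melanocytes too, at 10.16 at day 50 and 11.63 at day 19. Cpa3, another mast cell gene, averaged 5.32 and 4.87 and was not called. Macrophage sums overlapped, at 994 to 1352 at day 50 and 907 to 2582 at day 19. The part of these cells in the members' differences was not tested.

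Partners that act before the melanosome is mature were read through 27 genes of cargo delivery, which include subunits of BLOC-1, BLOC-2, BLOC-3, AP-3 and HOPS and their fusion partners. At day 50 against day 19, 14 of 27 were lower and none was higher, against 14.5% of all genes called lower, with a median of -0.59. Of the 9968 genes above the median level, fitted alone, 2714 were lower and 695 higher. Vamp7, a fusion protein that delivers Tyrp1, fell by 1.89 (SE 0.49, limma adjusted p = 0.0209), Vps41, a HOPS subunit, fell by 1.45 (SE 0.27, adjusted p = 0.00513), and Hps3, a BLOC-2 subunit, fell by 1.31 (SE 0.14, adjusted p = 0.000218). Against the proliferation the list had more genes higher than lower: 10 were higher and 1 lower in Cdkn2a/Braf/Lkb1 melanoma, where 20% of all genes were higher and 20.6% lower, and 9 were higher and none lower in Cdkn2a/Braf melanoma, where 12.6% were higher and 8.88% lower. The 9968 genes above the median level leaned the same way, with 3256 higher and 1177 lower in Cdkn2a/Braf/Lkb1 melanoma and 2226 higher and 674 lower in Cdkn2a/Braf melanoma. Snapin, a BLOC-1 subunit, rose by 0.95 (SE 0.20, adjusted p = 0.0052) in Cdkn2a/Braf/Lkb1 melanoma and by 1.20 (SE 0.20, adjusted p = 0.00283) in Cdkn2a/Braf melanoma. Most of these proteins serve endosomes and lysosomes in all cells.

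Among the 26 partners of Rab27a and myosin Va, 7 were lower and none was higher at day 50 against day 19, where 14.5% of all genes were called lower, and the list's median was 0.10. Of the 9968 genes above the median level 2714 were lower, a share near that of the list. Chm, an escort protein for attaching lipid to Rab proteins such as Rab27a, fell by 1.88 (SE 0.58, limma adjusted p = 0.0394). Fmn1, a formin of the melanocyte actin network, fell by 1.45 (SE 0.21, adjusted p = 0.00131), Sytl2 fell by 1.11 (SE 0.26, adjusted p = 0.015), Madd, the exchange factor for Rab27a, fell by 1.04 (SE 0.18, adjusted p = 0.003) and Spire1, an actin nucleator that works with formins, fell by 0.84 (SE 0.13, adjusted p = 0.00202). In Cdkn2a/Braf melanoma against the proliferation, 4 were lower and 2 higher, near the 8.88% lower and 12.6% higher of all genes. Sytl2 fell by 1.97 (SE 0.24, adjusted p = 0.000489), Exph5, another Rab27a effector, fell by 1.81 (SE 0.19, adjusted p = 0.000248) and Mreg, a regulator of melanosome transport, fell by 1.62 (SE 0.35, adjusted p = 0.0102), while Spire1 rose by 0.74 (SE 0.12, adjusted p = 0.00225).

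Of 13 measured motors and motor partners on microtubules, the long-range track, 6 were lower and none higher at day 50 against day 19, where 14.5% of all genes were lower, and Dync1li1, a dynein light intermediate chain, fell by 1.70 (SE 0.18, limma adjusted p = 0.000214). In Cdkn2a/Braf/Lkb1 melanoma against the proliferation 8 were higher and none lower, where 20% of all genes were higher, and in Cdkn2a/Braf melanoma 4 were higher and none lower, where 12.6% of all genes were higher. Of the 9968 genes above the median level 2714 were lower at day 50 against day 19. Against the proliferation 3256 of them were higher in Cdkn2a/Braf/Lkb1 melanoma and 2226 in Cdkn2a/Braf melanoma. Melanin synthesis was read beside the motors. All 9 genes of the other pigment list were lower at day 50, with a median of -2.98, and Gpr143, a melanosomal receptor, fell by 3.86 (SE 0.33, adjusted p = 8.36e-05). Of the 7 core genes 2 were lower: Pmel fell by 0.97 (SE 0.22, adjusted p = 0.0129) and Mitf, the master transcription factor, fell by 0.52 (SE 0.17, adjusted p = 0.0468). The fall of Rab38, 3.67, lay within the range of the pigment list.

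**Figure D4:**
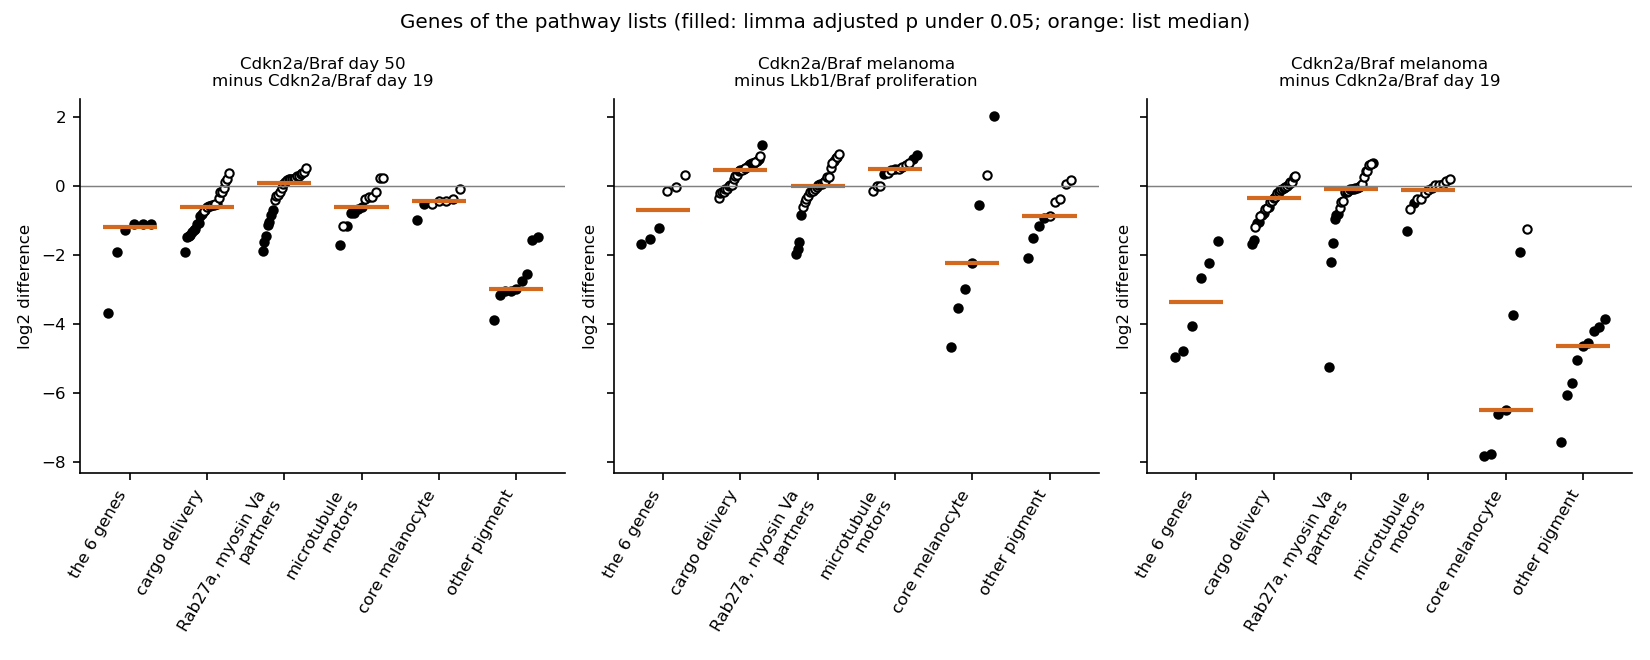
Log2 differences of every measured gene of the pathway lists beside the 6 genes, in day 50 minus day 19 Cdkn2a/Braf melanocytes, Cdkn2a/Braf melanoma minus proliferation and Cdkn2a/Braf melanoma minus day 19 cells, with filled points for limma adjusted p under 0.05 and an orange line at each list's median. At day 50 against day 19 the medians were -1.18 for the 6 genes, -0.59 for cargo delivery, 0.10 for partners of Rab27a and myosin Va, and -2.98 for other pigment genes.

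The genes with the most similar pattern were found by the root mean square difference between centred group means over the 6 groups. For Rab38 they were Gpr143 (0.37), Mc1r (0.37), the melanocortin receptor, and Npy (0.38), a neuropeptide. For Rab27a they were its effector Sytl2 (0.30), Kit (0.43), a receptor of melanocytes and mast cells, and Plxnc1 (0.45), a semaphorin receptor. Mlph was nearest to Igsf11 (0.15), Plagl1 (0.17) and Dnajc6 (0.18), and Myo5a to Dpp7 (0.13), Npc1 (0.14) and Tacc1 (0.17). Gpnmb was nearest to Sort1 (0.41), Rnase1 (0.43) and Bhlhe41 (0.45), and Rab32 to Fam122a (0.087), Nr2c2ap (0.14) and Pole4 (0.14). A small distance is easier to reach for a gene with a small span such as Rab32. Among the 6 genes the nearest pair was Mlph and Myo5a at 0.36, where Myo5a was the gene at rank 19 for Mlph out of all genes. Rab38 and Rab32 were 1.73 apart, and Rab32 was at rank 368 for Rab38.

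**Figure D5:**
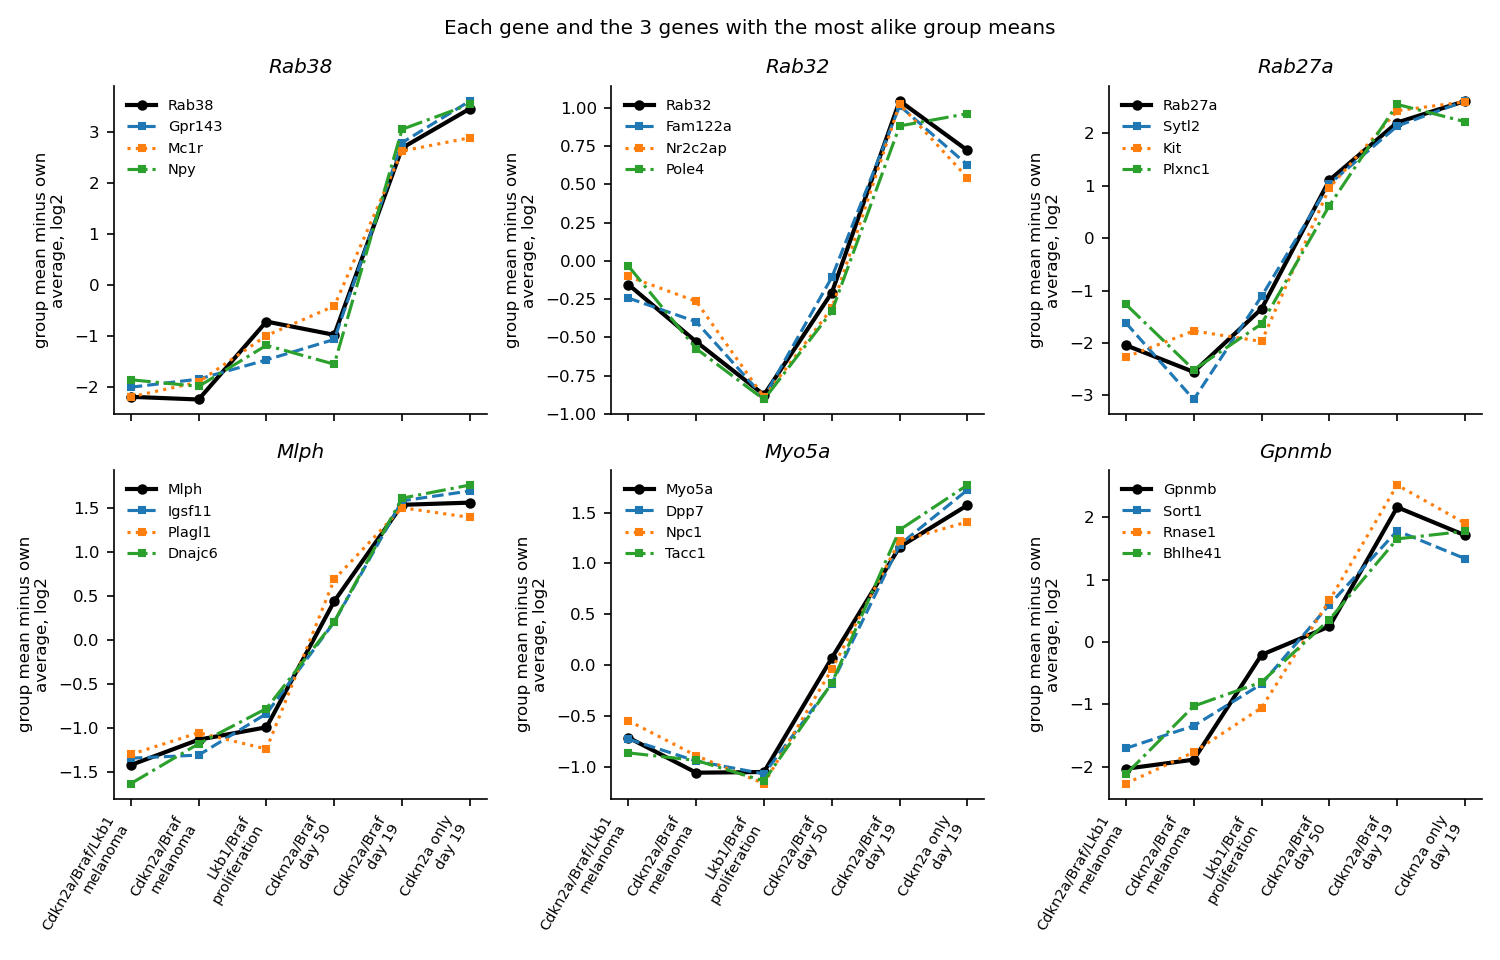
Group means of each of the 6 genes (black) and of the 3 genes with the most similar means, each minus its own average over the 6 groups, in log2. Rab38 and its neighbours Gpr143, Mc1r and Npy share the low level at day 50 that Rab27a, Sytl2 and Kit lack. The neighbours were picked by these same means, day 50 included, so the shared shape follows from the choice.

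Promoter windows are shown because all 6 genes had their highest levels in the day 19 groups and MITF is known to bind short E-box motifs in melanocyte promoters. RefSeq windows on GRCm38.p6, from 250 bases before to 50 after a start, covered 5 of the 6 genes in 6 windows. Rab38 had no window, and Rab27a had 2. The letters searched, on both strands, were TCATGTG, called the M-box, CATGTG, which lies within it, and CACGTG. Over all 32851 windows they occurred in 3.77%, 14.2% and 7.15%. TCATGTG and CATGTG were in none of these 6 windows of 5 members, and for Rab38 this could not be read. CACGTG was in 2, that of Mlph, 48 bases before the start, and that of the second start of Rab27a, 246 bases before it. Of the 18 most alike genes 13 had a window, and TCATGTG was in Mc1r, 52 bases before the start, and in Dpp7. It was also in those of 4 of 7 other pigment genes with a window. The window of Mlph (chr1:90914850-90915149, plus strand), that of the second start of Rab27a (chr9:73063898-73064197, plus strand), and that of Mc1r, which holds TCATGTG, (chr8:123406832-123407131, plus strand) read as follows, with the motifs in capitals. In Mc1r the first run in capitals is CATGTG read on the other strand.
Mlph: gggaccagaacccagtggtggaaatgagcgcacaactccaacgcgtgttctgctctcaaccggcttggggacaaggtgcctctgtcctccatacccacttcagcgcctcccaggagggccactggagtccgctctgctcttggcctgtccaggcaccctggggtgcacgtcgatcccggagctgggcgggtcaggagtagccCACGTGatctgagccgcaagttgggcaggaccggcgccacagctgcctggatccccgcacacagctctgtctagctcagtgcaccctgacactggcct
Rab27a: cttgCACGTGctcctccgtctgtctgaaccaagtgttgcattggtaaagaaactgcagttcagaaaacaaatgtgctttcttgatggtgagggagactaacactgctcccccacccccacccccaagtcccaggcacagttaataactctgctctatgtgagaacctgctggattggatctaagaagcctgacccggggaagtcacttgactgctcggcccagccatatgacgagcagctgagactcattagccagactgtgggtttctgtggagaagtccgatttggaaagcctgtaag
Mc1r: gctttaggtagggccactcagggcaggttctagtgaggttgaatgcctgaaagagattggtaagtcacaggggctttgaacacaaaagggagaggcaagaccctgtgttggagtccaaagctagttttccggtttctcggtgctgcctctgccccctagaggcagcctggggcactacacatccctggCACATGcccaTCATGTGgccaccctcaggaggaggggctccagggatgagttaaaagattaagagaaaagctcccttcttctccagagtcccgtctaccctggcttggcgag
A match is a run of letters and was not tested for binding.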

How the data were processed

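RNA from 13 mouse samples was measured on Affymetrix whole-transcript arrays. Values were made with RMA, per the submitters' processing notes, with no version stated. The deposited intensities are linear (3.35 to 17698), although RMA works on a log scale, and no source used here says how the authors changed the scale. Here log2(intensity + 1) was taken. Of 34760 probe sets 21640 name 1 gene in the platform table, which gave 19937 genes, and for 954 genes with several probe sets the one with the highest mean was used. The fit was limma 3.58.1 in R 4.3.3 over 6 group means and 13 arrays (7 residual and 3.08 prior degrees of freedom), two-sided, with Benjamini-Hochberg adjustment at 0.05. It was tested on simulated data. With 2 or 3 arrays a group their number limits the precision. The p-values rest on 1 spread per gene, pooled over the 6 groups of samples labelled as biological replicates, not on the spread of the compared groups alone. That spread was unequal: the SD over genes of the log2 difference between 2 replicates was 0.703 at day 50, 0.292 in day 19 Cdkn2a/Braf melanocytes and 0.271 to 0.273 in the proliferation. The 6 genes, and lists of pathway and marker genes, were chosen with earlier results of these data known. Genes outside them were named as the 3 most alike to each gene, and list genes only from those called, among the 8 largest differences of a list in a comparison. The measured defining markers were named whatever their values, though not in every comparison. Alternatives changed the pseudocount, scaling, filter, probe rule and samples. Same-numbered samples of different groups did not deviate together (correlations from -0.117 to 0.0933, 0 of 30 pairs above 0.1), so the numbers were not taken as pairs. Where both groups hold 2 arrays, replicates 1 and 2 give the same correlation by construction, so the 30 are not all separate checks. Tables came from pandas 2.3.3 and numpy 2.4.6, and plots from matplotlib 3.10.9, under Python 3.11.15.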

Additional observations from a re-analysis of the deposited data

How the results depend on the processing

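Under the 23 other settings the called differences of the 6 genes kept their direction, except that with a common interquartile range day 50 minus day 19 Cdkn2a/Braf melanocytes was 0.06 for Rab27a and 0.07 for Myo5a. Of the 6 genes, 2 were then called in that comparison and 3 when sorted arrays alone were fitted, and in Cdkn2a/Braf melanoma minus day 50 cells 1 was called with the arrays of both groups alone. The cause was not tested. Differences that were not called changed sign. Myo5a in Cdkn2a/Braf/Lkb1 melanoma minus proliferation was -0.27 after quantile normalization and -0.44 with a common interquartile range, and in Cdkn2a/Braf melanoma minus proliferation it was 0.07 with median centring and 0.05 with the replicate block. The block, fitted although the numbers do not pair samples, called 6 in day 50 minus day 19, 3 in Cdkn2a/Braf/Lkb1 melanoma minus proliferation, 2 in Cdkn2a/Braf melanoma minus proliferation and 3 in proliferation minus day 50.

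Leaving out each array in turn, where a lone array is assumed to vary like the other groups, gave 2 to 6 genes called in day 50 minus day 19, 0 to 1 in Cdkn2a/Braf/Lkb1 minus Cdkn2a/Braf melanoma, 2 to 4 in Cdkn2a/Braf/Lkb1 melanoma minus proliferation and 3 to 5 in Cdkn2a/Braf melanoma minus day 50. Uncalled differences that crossed 0 ranged from -0.25 to 0.20 for Mlph in day 19 Cdkn2a/Braf minus Cdkn2a only melanocytes, and, in Cdkn2a/Braf/Lkb1 minus Cdkn2a/Braf melanoma, from -0.40 to 0.51 for Rab38 and from -0.53 to 0.24 for Gpnmb. In Cdkn2a/Braf melanoma minus proliferation they ranged from -0.39 to 0.11 for Mlph and from -0.11 to 0.10 for Myo5a, and in proliferation minus day 50 from -0.03 to 0.55 for Rab38 and from -1.35 to 0.44 for Gpnmb.

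Counts over all genes moved more. Each is followed by its range over the 8 alternatives that test all 19937 genes and leave out no single array, then over the fits without 1 array. They were 5095, 1502 to 5349 and 1835 to 5835 for day 50 minus day 19, and 58, 1 to 65 and 10 to 164 for day 19 Cdkn2a/Braf minus Cdkn2a only. They were 510, 259 to 794 and 135 to 1154 for Cdkn2a/Braf/Lkb1 minus Cdkn2a/Braf melanoma. Against the proliferation they were 8090, 4646 to 9453 and 4343 to 9908 for Cdkn2a/Braf/Lkb1 melanoma, and 4277, 3204 to 5685 and 2215 to 6047 for Cdkn2a/Braf melanoma. For Cdkn2a/Braf melanoma they were 2518, 1974 to 2782 and 1377 to 3557 against day 19, and 6462, 506 to 6776 and 2761 to 6714 against day 50. For proliferation minus day 50 they were 3652, 1912 to 5655 and 2317 to 4879. The filters on dim genes test fewer genes, 14414 and 9968, and with 9968 the counts were 22 for day 19 Cdkn2a/Braf minus Cdkn2a only, 202 between the melanomas, 4433 for Cdkn2a/Braf/Lkb1 melanoma minus proliferation, 3313 for Cdkn2a/Braf melanoma minus day 50 and 2334 for proliferation minus day 50. The split of higher to lower calls moved with scaling, being 2211 to 2884 in day 50 minus day 19 and 1034 to 3263 with median centring, 3991 to 4099 in Cdkn2a/Braf/Lkb1 melanoma minus proliferation and 5111 to 2688 with a common interquartile range, and 1817 to 1835 in proliferation minus day 50 and 1859 to 3796 with that range. It was 2507 to 1770 in Cdkn2a/Braf melanoma minus proliferation and 1461 to 1743 after quantile normalization, 1430 to 1088 in Cdkn2a/Braf melanoma minus day 19 and 1210 to 1542 with median centring, and 364 to 146 between the melanomas and 189 to 130 with a common interquartile range. For day 50 minus day 19 the median over all genes was 0.17, and -0.05 with a common interquartile range.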
